A study of Capsicum annuum with 78 samples.

Results

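The genes described here were higher, on average over 5 time points, in pepper leaves under heat, cold, mannitol and NaCl than in mock leaves. They were chosen from measured values. Counts were scaled by the library total to CPM, the count of a gene per 1000000 counts of its library. The value d was the difference between the mean log2(CPM + 1) of a stress and of the mock at the same time point, and D was the mean of d over the 5 time points of a stress. Among 16096 of 35884 genes with a mean mock level of 2 to 1000 CPM, 277 had a D of at least 0.5 in all 4 stresses, and the 120 with the largest smallest D were kept as members. In heat 25.6% of the 16096 genes reached the limit of 0.5, while 12.2% did so in cold, 8.41% in mannitol and 13.6% in NaCl. Of 3 identifiers that the choice left out, scaffold213.1 met the limits. The gene scaffold739.4 did not, with a D of 0.17 in cold, and neither did scaffold303.8, with 0.33 in mannitol. Since every contrast of a stress against mock was used to choose the members, those values are a description.

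Leaves were taken from Capsicum annuum cultivar CM334, a hot pepper, grown at 24 °C with 16 h of light and 8 h of dark, and each replicate pooled upper true leaves, the 3rd or 4th, of 4 plants. Heat was 40 °C, cold was 10 °C, and osmotic and salt stress were 50 mL of 400 mM mannitol or 400 mM NaCl given to the plant. Both mock and stressed plants were sampled 3, 6, 12, 24 and, last, 72 h into the treatment, and the mock also at 0 h, with 3 biological replicates in each of 26 groups. RNA-seq of the 78 libraries gave total counts of 4310398 to 7667094 per library, with a median of 5928347, and heat had the lowest median, 5077986. Pairs of replicates had a Pearson r across genes of 0.969 to 0.987 in log2 CPM. For 76 libraries the nearest library was a replicate of the same group, the exceptions being mannitol 6 h replicate 3 and mannitol 12 h replicate 3, each nearest to a NaCl library of its own time point. No leaf markers could be checked by name, and in bulk tissue fewer cells of a type and less RNA per cell cannot be told apart.

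Heat, cold, osmotic stress and salt all disturb the water balance, membranes and proteins of a leaf cell. Plants answer them partly through a common route: the hormone abscisic acid (ABA) rises when cells lose water, its receptors then bind and inhibit phosphatases of the PP2C family, and the protein kinases so released activate transcription factors and stomatal closure. PP2C genes and many NAC transcription factor genes are themselves induced by ABA in Arabidopsis. The identifiers of the count table matched 0 of 48341 genes of the reference name table, so most members are given by scaffold and gene number alone. For 3 members the Arabidopsis symbol printed next to the identifier in the study is used: ATPP2CA (scaffold1184.9), ATNAC3 (scaffold162.87) and SRG3 (scaffold473.142). A symbol was used only if no identifier with look-alike digits was also clearly higher under the stress of its panel, averaged over time points. That average also entered the choice of members. By this rule the symbols read for scaffold567.88, a member, and for scaffold862.18 (ABI2), not a member, were set aside. The labels were read from small print and the symbols are provisional; SRG3 was added after its values had been seen.

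The mean mock level of the members ran from 2.03 CPM in scaffold65.120 to 377 CPM in scaffold311.98, with a median of 12.6 CPM against 17.8 CPM over the 16096 genes. Of the 120 members 50 lay under 10 CPM and 10 over 100 CPM. They varied more between replicates than most genes, with a median biological coefficient of variation of 16.1% against 9.60% over all 19588 genes tested. The median D was 1.40 for heat, 1.33 for cold, 1.24 for mannitol and 1.58 for NaCl, against 0.14, -0.01, 0.06 and 0.11 over the 16096 genes. The highest D was 5.95 for heat, 4.24 for cold, 5.76 for mannitol and 5.47 for NaCl. It was largest in NaCl for 57 members, in heat for 36, in cold for 22 and in mannitol for 5, and smallest in cold for 45, in mannitol for 40, in heat for 31 and in NaCl for 4.

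At the edge of the choice, scaffold407.90 and scaffold222.144 were the last members, each with a smallest D of 0.72, in cold. The first genes left out, scaffold1098.2 and scaffold208.56, had 0.72 in cold too, so the edge separated genes with nearly equal values.

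Replicates differed from each other in the members as a whole more than in other genes. In heat at 24 h, replicate 2 was above the mean of the other libraries in 118 members, by a median of 0.64 on the log2(CPM + 1) scale, against -0.01 over the 16096 genes. In heat at 72 h, replicate 1 was above in 116 members, by a median of 0.57 against 0.10. In mannitol at 6 h, replicate 2 was above in 7 members, with a median of -0.52 against -0.05. In the mock at 6 h, replicate 1 was above in 104 members, with 19 of them higher by over 1. Without the first 3 of these libraries the members had 1510 calls higher and 37 lower against mock in place of 1540 and 31, and all 120 still met the limits on D. Without replicate 1 of the mock at 6 h, 117 still met all limits of the choice. The others, scaffold416.36, scaffold65.120 and scaffold1003.17, then had mean mock levels of 1.92, 1.93 and 0.908 CPM, under the limit of 2. What set these libraries apart was not tested.

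The members took a small part of the RNA of mock leaves and a larger part under every stress, but at different times. Their mean share of the library's counts was 0.291% (SD 0.0191, n = 3) in the mock at 24 h and at most 0.492% (SD 0.124, n = 3), in the mock at 6 h. In heat the share was largest at 3 h, with 2.33% (SD 0.214, n = 3), and it was 0.930% (SD 0.152, n = 3) at 72 h. In cold it was 0.447% (SD 0.0358, n = 3) at 3 h, where the 3 libraries held 0.410% to 0.481% against 0.348% to 0.378% in the mock, and 1.83% to 2.04% in the 3 libraries at 24 h. The largest share in mannitol was 1.46% (SD 0.240, n = 3), at 72 h, and the largest in NaCl was 2.28% (SD 0.152, n = 3), at 24 h. Every library of heat, mannitol and NaCl lay above the 3 mock libraries of its time point except in mannitol at 6 h, where 0.531% in replicate 2 was under the 0.634% of mock replicate 1. Every cold library lay above its mock as well.

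**Figure D1:**
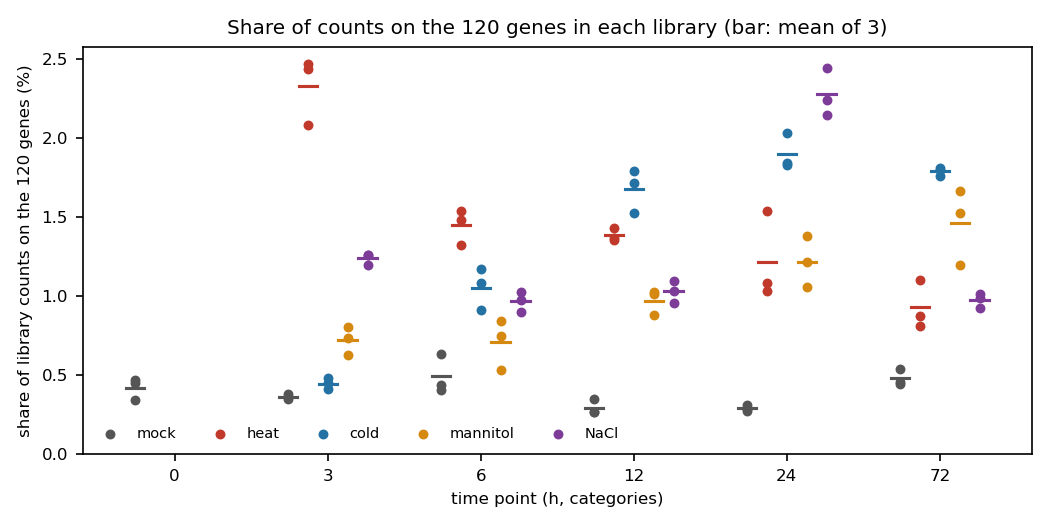
Share of each library's counts (%) that fell on the 120 members, by time point (h, drawn as categories); each point is a library and each bar the mean of 3. Heat starts at 2.33% and ends at 0.930%, and NaCl peaks at 2.28% at 24 h. Cold starts at 0.447%, above the mock's 0.363% at 3 h, and reaches 1.83% to 2.04% at 24 h.

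Differential expression was tested with edgeR's quasi-likelihood test on all 78 libraries, with TMM scaling and Benjamini-Hochberg adjustment over 19588 genes, and a call needed an adjusted p under 0.05 and a log2 fold change beyond 1 in size. All 120 members were tested. For stress against mock, over 20 contrasts, the members had 1540 calls higher and 31 calls lower out of 2400. None was called in all 20. The median member was called higher in 13 contrasts, scaffold1202.5 in 7, and scaffold1045.47, scaffold1237.11 and scaffold1527.10 in 18. A call higher at some time point of every stress was present in 117 members (4.26% of all genes), and 50 were called higher in the mean of the 5 contrasts of every stress (0.531%). The mean contrast was called higher for 87 members in heat (9.64% of all genes tested), 86 in cold (6.15%), 88 in mannitol (3.12%) and 109 in NaCl (4.86%), and lower for 0 in each (10.9%, 5.54%, 1.33% and 2.36%). These contrasts chose the members, and nothing is read from the distance to the percentages.

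The time courses differed by stress. In heat 106 members were called higher at 3 h (13.0% of all genes), 84 at 6 h (11.8%), 101 at 12 h (9.58%), 76 by 24 h (11.5%) and 29 by 72 h (11.1%), with 8 called lower at 72 h (13.4% lower). None was called lower earlier in heat, where 10.1% (at 12 h) to 13.0% (at 6 h) of all genes were. In cold 13 were called higher at 3 h (3.09%) and 8 lower (5.23%). Cold then had 57 called higher at 6 h (8.47%), 104 at 12 h (12.8%), 115 by 24 h (13.1%) and 66 by 72 h (16.2%). Those called lower in cold numbered 4 at 6 h (7.06%) and 6 at 72 h (19.0%), with 0 at 12 h (11.9%) and 0 at 24 h (10.7%). So heat was strong early and weak at 72 h, while cold at 3 h had few calls, with members on both sides of the mock. The split in cold at 3 h depended on scaling, with 11 called higher and 11 lower when library totals replaced TMM. Library totals moved the median log2 fold change of all genes against mock by -0.31 in cold at 12 h to 0.45 in cold at 72 h.

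In mannitol 54 members were called higher at 3 h (1.7%), 33 at 6 h (1.09%) with 3 lower (1.33%), 82 at 12 h (3.42%), 111 at 24 h (7.02%) and 87 at 72 h (6.59%). In NaCl 104 were called higher at 3 h (5.14%), 56 at 6 h (2.42%) with 2 lower (3.39%), 95 at 12 h (4.72%), 119 at 24 h (12.8%) and 48 at 72 h (3.68%). No other call lower was made in mannitol (over all genes 0.975% at 3 h, 2.47% at 12 h, 5.24% by 24 h and 2.44% by 72 h) or in NaCl (2.73% at 3 h, 3.59% at 12 h, 11.0% by 24 h and 2.11% by 72 h). Mannitol and NaCl thus shared a low count at 6 h and a high count at 24 h, and they were set against the same mock libraries. Calls higher at all 5 time points of a stress were found in 13 members under heat (1.65% of all genes), 3 under cold (0.414%), 15 under mannitol (0.179%) and 20 under NaCl (0.301%). In cold 8 members were called lower at 3 h and higher at 24 h (1.19%), and in heat 8 were called higher at 3 h and lower at 72 h (0.562%).

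**Figure D2:**
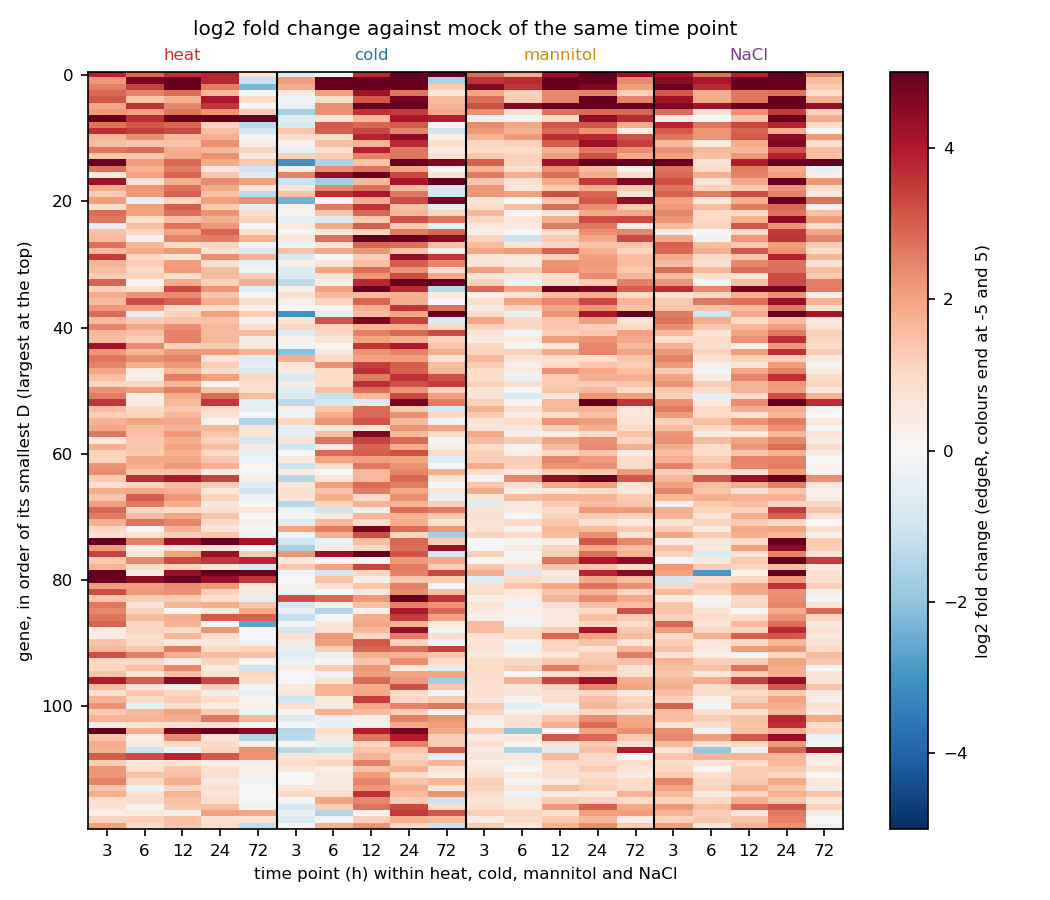
Log2 fold change against the time-matched mock (edgeR) for the 120 members, 1 per line in order of their smallest D, in 20 columns by stress and time point (h). Red is higher and blue lower than the mock, and colours end at -5 and 5. The columns of heat at 72 h and cold at 3 h are the palest, with medians of 0.22 and -0.02, against 2.53 in cold at 24 h and in NaCl at 24 h.

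Whether the libraries overlapped was also counted, from the same values. At 24 h all 3 stressed libraries lay above all 3 mock libraries for 120 members in cold (39.4% of the 16096 genes), 120 in mannitol (26.2%) and 120 in NaCl (44.2%), and for 109 in heat (38.2%). At 3 h this held for 115 members under heat (36.1%), 116 under NaCl (21.7%), 99 under mannitol (17.6%) and 38 under cold (16.2%). In cold at 3 h, 37 members had all 3 libraries below the mock (29.3%), and in heat at 72 h 13 did (22.0%). The value of d was above 0 in all 20 contrasts for 22 members (0.77% of the 16096 genes), and in 18 or more for 99 (7.68%). The largest d of a member fell at 3 h for 50 members in heat (19.3%) and at 12 h for 39 (11.5%). Under cold it fell at 12 h for 46 (8.65%) and at 24 h for 48 (12.6%). It fell at 24 h for 49 under mannitol (14.5%) and 86 under NaCl (32.2%).

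The member with the largest smallest D was scaffold567.88. In the mock at 24 h its libraries held 1.80, 1.59 and 1.98 CPM, and in NaCl at 24 h they held 176, 184 and 169 CPM. In cold at 3 h they held 2.58, 2.55 and 4.51 CPM, against 3.80, 6.78 and 5.84 CPM in the mock. The NaCl libraries at 24 h were all far above the mock, and the cold libraries at 3 h overlapped with it. By 72 h in cold the libraries of scaffold567.88 held 241, 244 and 225 CPM against 3.94, 2.90 and 3.66 CPM in the mock, and in heat at that time they held 6.24, 7.53 and 7.21 CPM. Its D was 2.90 for heat, 2.72 for cold, 3.58 for mannitol and 3.81 for NaCl.

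For scaffold1367.3 the values were highest in heat, where D was the largest of all members, 5.95. Its heat libraries at 3 h held 1010, 1177 and 1111 CPM against 6.23, 6.27 and 7.51 CPM in the mock, while cold held 6.02, 4.94 and 1.44, mannitol 4.22, 4.80 and 7.30, and NaCl 9.57, 10.3 and 8.63 CPM. At 3 h only heat was thus clear of the mock by a wide margin. At 24 h scaffold1367.3 was above the mock's 4.85, 5.42 and 5.38 CPM in every stressed library, with 58.5 to 123 CPM in cold, 91.9 to 129 in mannitol, 345 to 409 in NaCl and 664 to 975 in heat. Outside heat its high values were thus late ones.

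In scaffold358.34 the order was the opposite, with the largest D in mannitol (5.76) and NaCl (5.47) and 1.74 in heat. Its NaCl libraries at 24 h held 1738, 2204 and 1770 CPM against 1.39, 1.75 and 1.13 CPM in the mock, and the mannitol libraries at 72 h held 546, 1312 and 1694 CPM against 6.00, 7.48 and 4.78 CPM. Heat at 24 h gave 2.90, 53.4 and 2.07 CPM, so that a single library, replicate 2, carried the higher mean. The gene scaffold1045.47 had the largest D in cold of all members, 4.24, with 4.29 in NaCl. Its cold libraries held 341, 409 and 325 CPM at 12 h, against 1.69, 1.05 and 1.73 CPM in the mock, but 5.51, 4.94 and 5.60 CPM at 3 h, when the mock held 1.82, 2.37 and 0.668 CPM.

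**Figure D3:**
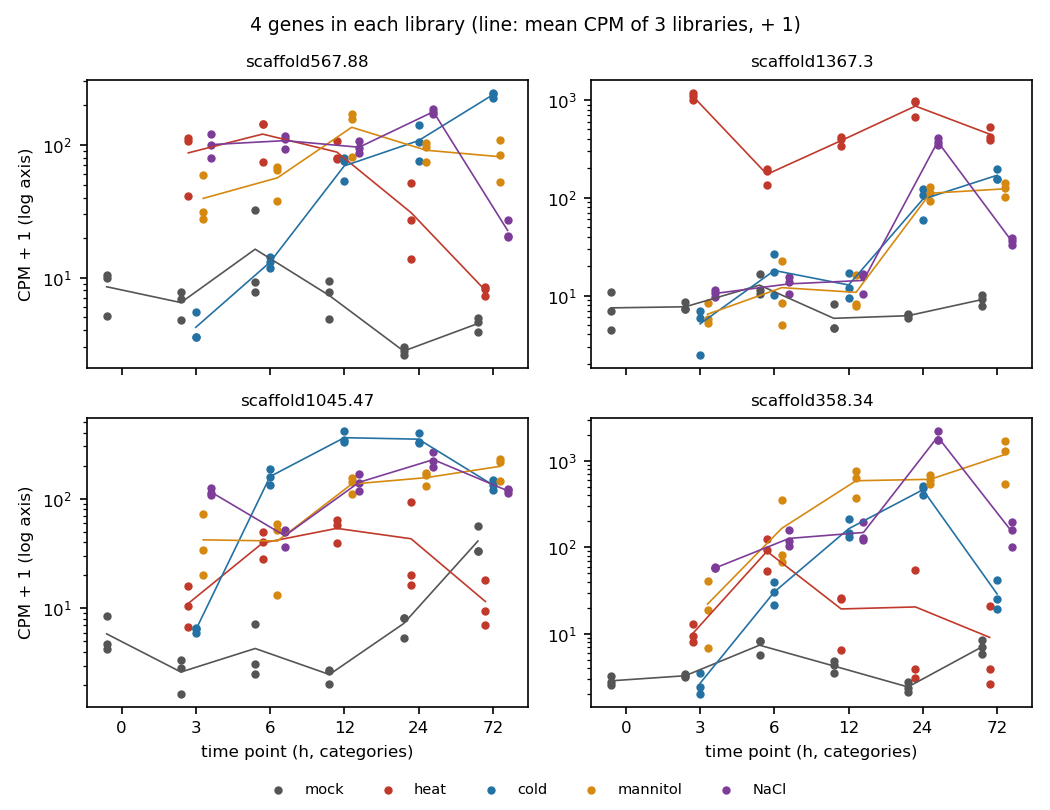
CPM + 1 on a log axis in each library of 4 members, by time point (h, drawn as categories); points are libraries and lines join the means of 3. The gene scaffold567.88 differs from the mock early in heat and NaCl and late in cold, scaffold1367.3 stands at 1010 to 1177 CPM in heat at 3 h, scaffold1045.47 at 325 to 409 CPM in cold at 12 h, and scaffold358.34 at 1738 to 2204 CPM in NaCl at 24 h.

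Other members among the 10 with the largest smallest D also stood above the mock at some time points. The gene scaffold352.44 held 0.337, 0.350 and 0.315 CPM in the mock at 12 h, 2 counts in each library, and 61.7, 81.4 and 80.9 CPM in cold at 12 h. In the mock at 72 h it held 8.20, 6.26 and 6.85 CPM, above the 2.89, 3.55 and 3.26 CPM of cold at 72 h. The gene scaffold352.44 was thus higher in cold at 12 h and lower at 72 h, with no overlap either time. The gene scaffold407.89 was abundant in the mock, with a mean of 118 CPM, and held 938, 1117 and 968 CPM in cold at 12 h against 78.3, 57.6 and 64.3 CPM. The gene scaffold108.45 had a D of 3.04 in NaCl, scaffold394.77 one of 2.91, and scaffold473.111 had its largest, 2.12, in heat. In heat at 24 h replicate 2 was high again, with 42.3 CPM in scaffold108.45 against 6.16 and 6.84 CPM in the other libraries.

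Of the members with a symbol, ATPP2CA (scaffold1184.9) is named for an Arabidopsis PP2C phosphatase that holds ABA signalling off until the receptors bind it. ATPP2CA was the most abundant of the 3 in mock leaves, with a mean of 60.8 CPM. At 12 h its cold libraries held 456, 503 and 460 CPM, against 62.7, 51.2 and 56.0 CPM in the mock. Its NaCl libraries at 3 h held 308, 283 and 264 CPM against 62.0, 47.1 and 64.3 CPM. In heat at 72 h it held 77.7, 54.9 and 49.9 CPM, below the mock's 85.0, 94.2 and 85.8 CPM in every library. D was 0.93 for heat, 1.94 for cold, 1.68 for mannitol and 1.81 for NaCl. The mean effect of heat on ATPP2CA lay below that of cold, with a log2 difference of -1.15 (standard error 0.07), but under scaling by library totals it was -0.99 and did not pass the limit of 1. For the pair heat and NaCl it was -0.93 (standard error 0.07), short of the limit, but -1.03 and past it without replicate 2 of every group and -1.04 without heat 24 h replicate 2, heat 72 h replicate 1 and mannitol 6 h replicate 2.

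ATNAC3 (scaffold162.87) is named for an Arabidopsis gene of the NAC family, plant transcription factors many of which respond to drought and senescence. It was scarce in the mock, with a mean of 2.61 CPM. In cold at 3 h its libraries held 0.344, 0.681 and 1.62 CPM, 2 to 9 counts each, below the mock's 3.04, 2.71 and 3.00 CPM, and at 12 h in cold they held 23.3, 28.4 and 21.8 CPM against 2.02, 1.58 and 3.46 CPM. In NaCl at 3 h ATNAC3 held 25.1, 20.4 and 18.2 CPM. D lay between 1.74, in cold, and 1.99, in mannitol, the narrowest range of the 3 members. None of the 6 mean differences between stresses was called for ATNAC3, the widest being -0.37 for cold against mannitol (standard error 0.14).

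SRG3 (scaffold473.142) is named for a senescence-related gene of Arabidopsis. Its mean level was highest in cold at every time point from 3 h on, with libraries of heat and mannitol overlapping those of cold at 12 h. In cold at 3 h its libraries held 108, 113 and 127 CPM against 12.9, 11.4 and 13.0 CPM in the mock, whereas mannitol held 15.2 to 16.5 CPM and NaCl 14.3 to 19.5 CPM. At 24 h SRG3 held 325, 319 and 338 CPM in cold against 9.56, 9.56 and 8.07 CPM. D was 3.31 in cold and 0.98 in heat, 1.32 in mannitol and 0.82 in NaCl. Among the members, SRG3 had the largest called excess of cold over heat, a log2 difference of 2.51 in size (-2.51 as heat minus cold, standard error 0.09), and of cold over NaCl, with 2.62 (standard error 0.09).

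The stresses were then set against each other, with the mock cancelling out. In the mean over the 5 time points such a difference is the edgeR counterpart, with TMM scaling, of a difference of 2 D values. The choice had used D, so the fitted difference, though not equal in size, is given as a description. Of the members 16 to 28 differed by more than the limit in the pairs other than mannitol and NaCl. Against cold, heat was higher for 14 members (13.7% of all genes) and lower for 14 (13.5%). Against mannitol, heat was higher for 8 (5.59%) and lower for 8 (9.89%), and against NaCl higher for 9 (5.17%) and lower for 17 (9.58%). Cold was higher than mannitol for 12 (5.5%) and lower for 8 (7.62%), and higher than NaCl for 6 (4.91%) and lower for 16 (7.24%). As shares of the members these were 11.7% and 11.7%, then 6.67% and 6.67%, 7.5% and 14.2%, 10% and 6.67%, and 5.0% and 13.3%, in the same order. When library totals replaced TMM, the split for heat and cold became 17 and 9, and that for heat and mannitol 11 and 7.

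Between mannitol and NaCl no member was called in the mean of the time points, higher (0.332%) or lower (0.531%), by edgeR or by DESeq2. At an unadjusted p under 0.05, 79 members (43.7% of all genes) differed in edgeR's quasi-likelihood test, and 73 (34.7%) had an adjusted p under 0.05 with no limit on the fold. The median difference of the members was -0.25 on the log2 scale, that is lower in mannitol. The count was 5 without replicate 3 of every group, and 5 without the libraries mannitol 6 h replicate 3 and mannitol 12 h replicate 3.

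At single time points the counts of called members were mostly larger. The choice used the effects at single time points, through their mean alone, so these counts are a description too. At 3 h heat was above cold for 87 members (17.2%) and below for 2 (13.1%), and at 24 h above for 8 (14.3%) and below for 65 (15.4%). Heat was above mannitol at 3 h for 60 (9.26%) and below for 6 (10.3%), and at 72 h above for 6 (9.89%) and below for 70 (15.1%). Against NaCl, heat was above for 25 (8.1%) and below for 21 (9.8%) at 3 h, and above for 6 (9.49%) and below for 75 (12.3%) at 24 h. At 6 h and 12 h heat was above cold for 37 (17.4%) and 13 (17.2%), and below for 20 (17.7%) and 39 (17.3%). In the same order it was above mannitol for 43 (7.6%) and 28 (5.72%), and below for 1 (9.27%) and 8 (7.63%). Against NaCl it was above for 27 (5.92%) and 19 (5.52%), and below for 4 (8.12%) and 7 (8.07%). More members were thus higher in heat than in cold at 3 h and 6 h, and more were lower from 12 h on. Against mannitol more were higher in heat up to 12 h, and against NaCl at 6 h and 12 h. From 24 h on more were lower against both. At 3 h heat and NaCl had no order (median difference 0.07). Cold at 3 h was below mannitol for 58 members (7.12%) and below NaCl for 93 (10.9%), and above each of them for 2 (3.01% and 5.4%). At 12 h cold was above mannitol for 50 (12.4%) and below for 9 (12.5%), and above NaCl for 37 (11.4%) and below for 8 (12.5%). Under library totals these splits were 35 and 15 for mannitol and 33 and 15 for NaCl. Mannitol was below NaCl for 28 members at 3 h (1.04%) and for 33 at 24 h (4.84%), and above it for 0 and 0 (0.5% and 4.66%). At 72 h mannitol was above NaCl for 23 (2.79%) and below for 0 (0.99%).

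**Figure D4:**
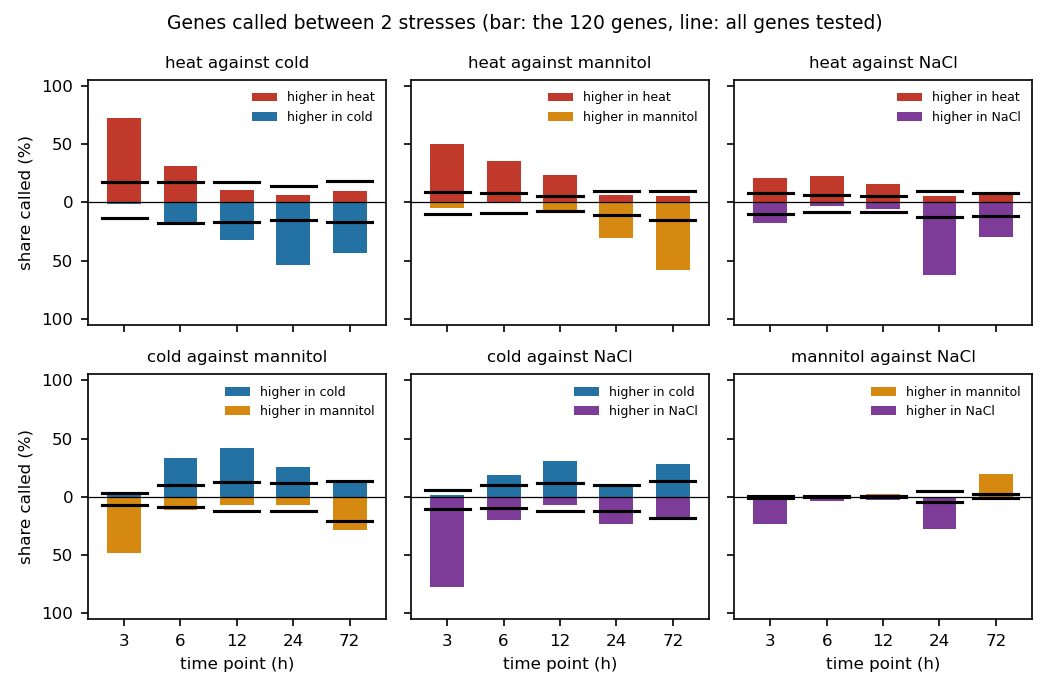
Share (%) of the 120 members called between a pair of stresses at each time point (h), drawn upward where the first stress is higher and downward where the other is higher; black lines are the same shares over all 19588 genes. Bars pass from upward to downward between 3 h and 24 h for heat against cold, with 87 members higher in heat at 3 h and 65 lower at 24 h.

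The widest mean differences between stresses belonged to few members. In scaffold1003.17 heat held 62.1, 278 and 124 CPM at 3 h, against 0.172, 0.681 and 0.542 CPM in cold and 1.48, 3.03 and 2.20 CPM in NaCl. Heat was clear of both in every library. The mean difference was 4.16 for heat minus cold (standard error 0.33) and 4.09 for heat minus NaCl (standard error 0.32). The gene scaffold1003.17 was almost silent in the mock, with 1 to 20 counts in every library except replicate 1 at 6 h, which held 183 counts, 29.4 CPM. Without that library its mean mock level was 0.908 CPM, under the limit of 2.

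In scaffold1367.3 heat exceeded mannitol by 4.24 (standard error 0.14) in the mean. In scaffold358.34, whose heat libraries at 12 h held 25.0, 5.57 and 24.6 CPM, against 641, 761 and 369 CPM in mannitol, the mean difference of heat minus mannitol was -3.97 (standard error 0.26) and that of heat minus NaCl was -3.47 (standard error 0.26). These members were at opposite ends of the same comparison. Cold exceeded mannitol most in scaffold1861.9, with 226, 232 and 273 CPM in cold at 12 h against 10.6, 17.3 and 14.6 CPM in mannitol. The mean difference there was 2.53 (standard error 0.14).

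Cold was lowest against the osmotic stresses in scaffold416.36. In cold at 3 h each library of scaffold416.36 held 1 count, and in NaCl at 3 h they held 53.6, 41.8 and 64.2 CPM. The mean difference was -3.44 for cold minus NaCl (standard error 0.32) and -3.01 for cold minus mannitol (standard error 0.34). In the mock at 6 h scaffold416.36 held 42.1 CPM in replicate 1 and 5.04 and 3.03 CPM in the others, and its mean mock level was 1.92 CPM without replicate 1.

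The effect of each stress, its log2 fold change against mock, was then compared between 72 h and 3 h. The mean over time points does not fix this difference, but both effects entered the choice of members. Counts and p-values for it are thus a description. In heat the effect was smaller at 72 h for 83 members (12.2% of all genes) and larger for 2 (10.2%), with a median difference of -1.63. In cold it was larger for 61 (18.2%) and smaller for 18 (20.1%), with a median of 1.29. In mannitol it was larger for 27 (2.64%) and smaller for 8 (1.87%), and in NaCl larger for 5 (2.99%) and smaller for 47 (3.73%), with medians of 0.53 and -0.95. When library totals replaced TMM, the counts were 2 larger and 75 smaller in heat and 73 larger and 7 smaller in cold. A smaller effect in both heat and NaCl was called for 42 members (2.06% of all genes), and a smaller effect in heat with a larger effect in cold for 35 (1.95%). Without heat 24 h replicate 2, heat 72 h replicate 1 and mannitol 6 h replicate 2, the called members numbered 92 for heat, 81 for cold, 38 for mannitol and 55 for NaCl.

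Tested over all 5 time points together, the effect varied in 109 members in heat (37.7% of all genes), 119 under cold (58.9%), 104 under mannitol (16.2%) and 117 under NaCl (29.7%). The effects themselves were used in the choice of members, and nothing particular to them is read from the distance to the background.

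**Figure D5:**
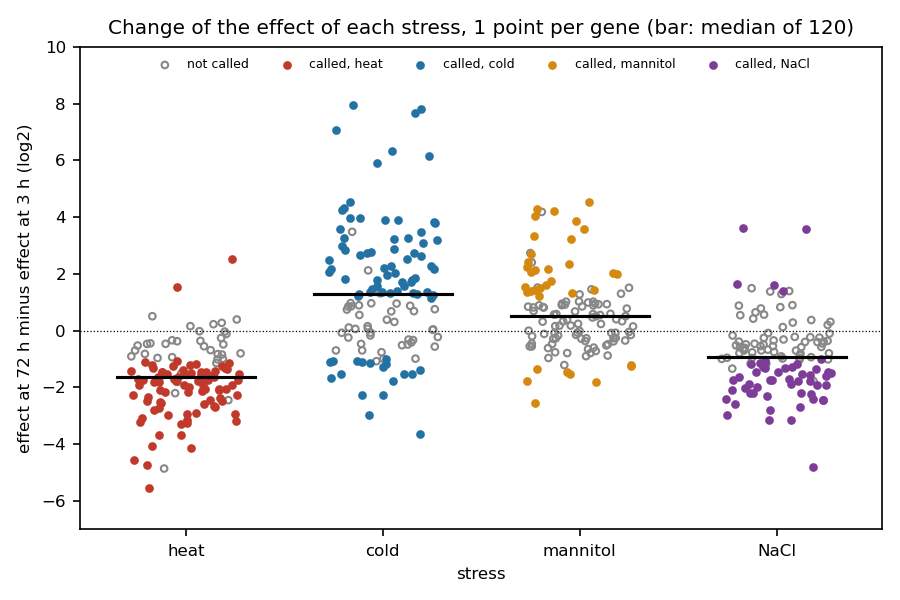
Log2 effect at 72 h minus log2 effect at 3 h for each stress; each point is a member, filled where called by edgeR, and bars are medians of 120. Most points lie below 0 in heat (median -1.63) and NaCl (median -0.95) and above 0 in cold (median 1.29) and mannitol (median 0.53).

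The largest fall in heat was in scaffold792.44. Its heat libraries held 91.2, 104 and 104 CPM at 3 h against 13.1, 6.44 and 17.9 CPM in the mock, and 3.02, 0.386 and 0.618 CPM at 72 h against 8.36, 4.43 and 7.80 CPM. The gene scaffold792.44 thus passed from above the mock to below it, with no overlap at either time. The effect changed by -5.55 (standard error 0.68, adjusted p = 5.99e-10, edgeR's quasi-likelihood test), although 2 of the heat libraries at 72 h held 2 and 3 counts. In cold the effect on scaffold567.88 changed by 6.33 (standard error 0.79, adjusted p = 3.95e-10).

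The largest rise in cold was in scaffold1202.5, where the cold libraries at 3 h held 1, 0 and 4 counts and at 72 h 76.4, 74.8 and 73.1 CPM. The mock held 1.98, 3.22 and 2.67 CPM at 3 h and 1.26, 3.21 and 0.796 CPM at 72 h. The change of the effect was called by edgeR's quasi-likelihood test (adjusted p = 7.59e-05), and its size rests on the few counts at 3 h. The largest fall in cold was in scaffold352.44, with -3.66 (standard error 1.01, adjusted p = 0.00157 in the same test).

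The gene scaffold61.35 went against the majority in heat and NaCl. Its heat libraries held 2.85, 8.29 and 6.91 CPM at 3 h and 94.0, 50.6 and 51.5 CPM at 72 h, while the mock held 2.58, 1.86 and 2.34 CPM and then 3.79, 4.88 and 2.55 CPM. In mannitol it held 2.41, 2.68 and 1.52 CPM at 3 h, overlapping with the mock, and 56.9, 96.0 and 136 CPM at 72 h. By edgeR's quasi-likelihood test the effect on scaffold61.35 rose by 4.53 in mannitol (standard error 0.76, adjusted p = 1.86e-05), by 3.60 in NaCl (standard error 0.76, adjusted p = 0.000317) and by 2.51 in heat (standard error 0.70, adjusted p = 0.00251). The call in heat was lost without replicate 1 of every group, where the change was 1.84.

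The largest falls in mannitol and NaCl were in scaffold1045.47, with -2.54 (standard error 0.76, adjusted p = 0.0166) and -4.79 (standard error 0.71, adjusted p = 7.93e-07) by edgeR's quasi-likelihood test. Its NaCl libraries held 125, 112 and 106 CPM at 3 h and 122, 111 and 118 CPM at 72 h, nearly the same level, while the mock went from 1.82, 2.37 and 0.668 CPM to 32.3, 55.4 and 32.2 CPM. The NaCl level was thus steady and the mock level was not. The call in mannitol was lost without replicate 1 of every group, with -1.93, and without replicate 3, with -2.83. In scaffold473.111 the effect was smaller at 72 h than at 3 h in all 4 stresses, by edgeR's quasi-likelihood test, with a change of -4.55 in heat (standard error 0.28, adjusted p = 9.63e-21) and of -1.83 in mannitol (standard error 0.29, adjusted p = 6.25e-06). The mock of scaffold473.111 held 2.58, 3.73 and 3.17 CPM at 3 h and 25.6, 34.4 and 29.4 CPM at 72 h.

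The members also moved in the mock leaves, which bears on every effect above. Their mock means at 3 to 72 h differed in 104 members (35.3% of all genes). The mock mean was lowest at 24 h for 52 members and at 12 h for 27, and highest at 6 h for 58 and at 72 h for 45. These times were not counted over all genes, so nothing particular to the members is read from them. Against 0 h, 3 members were higher at 3 h (1.64%) and 10 lower (1.79%), and 31 members were higher at 6 h (8.36%) and 16 lower (6.98%). At 12 h 9 were higher (7.2%) and 36 lower (7.29%), a split that became 15 and 23 with library totals. At 24 h 1 was higher (0.827%) and 27 lower (2.69%), and at 72 h 22 were higher (2.54%) and 12 lower (3.49%). A low mock raises D, so a low mock from 3 h on is favoured by the choice of members and is given as a description.

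The widest mock ranges were those of scaffold1045.47, 5.10 on the log2 scale, scaffold352.44, 4.70, and scaffold416.36, 4.66, the last of these with its highest mean at 6 h, where replicate 1 held 42.1 CPM. The most abundant member, scaffold311.98, held 145, 168 and 119 CPM in the mock at 12 h and 362, 358 and 360 CPM at 24 h. At 24 h it held 3170, 2799 and 3017 CPM in cold and 1996, 2333 and 2364 CPM in NaCl, all above the mock. The effect of heat on scaffold311.98 was smaller at 72 h than at 3 h by 2.67 in size (-2.67, standard error 0.22, adjusted p = 2.30e-15, edgeR's quasi-likelihood test). At the other end, scaffold65.120 held 1.11, 0.637 and 1.27 CPM in the mock at 24 h and 14.1, 14.3 and 11.9 CPM in cold at 24 h. Without replicate 1 of the mock at 6 h its mean mock level was 1.93 CPM, under the limit of 2.

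The 120 members lay on 103 scaffolds, 13 scaffolds held 2 or more, and at most 3 shared a scaffold. Like counts were not made over all genes, so nothing is read from these or from the next count. A neighbouring gene number was also a member for 4 members, in the pairs scaffold407.89 with scaffold407.90 and scaffold1280.4 with scaffold1280.5. In the first pair the levels were unlike, with a mean of 118 CPM in the mock in scaffold407.89, and cold at 12 h gave 50.8, 36.0 and 19.7 CPM in scaffold407.90 against 19.9, 19.1 and 19.3 CPM in the mock, an overlap. In the other pair both members followed cold to 72 h, with 1053, 1089 and 1113 CPM in scaffold1280.4 against 68.6, 103 and 77.2 CPM in the mock, and 107, 114 and 122 CPM in scaffold1280.5 against 6.15, 9.77 and 10.7 CPM. The 72 h minus 3 h change in cold was 3.78 (standard error 0.30, adjusted p = 4.90e-17) in scaffold1280.4 and 3.98 (standard error 0.66, adjusted p = 4.31e-07) in scaffold1280.5 by edgeR's quasi-likelihood test. If neighbours are near-identical copies their reads could be shared between them by the counting, and their values are uncertain to that extent.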

How the data were processed

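Leaf RNA-seq of 78 libraries was analysed from a table of read counts per gene that the authors deposited. Per the labels and the study's methods, the authors checked reads with FastQC 0.11.5, trimmed them with cutadapt 1.9.1, aligned them with HISAT2 to the CM334 genome and counted them with featureCounts 1.5.2. The libraries were strand-specific, and the strand setting of the counting is not given in the sources used here. The members and lists were chosen with earlier results of these data known. Tests used edgeR 4.0.16 in R 4.3.3: 1 factor of 26 groups, all 78 libraries, filterByExpr (19588 genes kept), TMM factors of 0.835 to 1.24, quasi-likelihood F-tests with 52 residual degrees of freedom and Benjamini-Hochberg adjustment over all genes tested. Differences between stresses and between time points were contrasts of the same fit. The fit was run on simulated counts with a coefficient of variation of 11.4% in every gene and changes planted in well-counted genes. That run covered neither the members' wider spread, a median of 16.1%, nor members with few counts. Genes were named by fixed rules: the 10 largest smallest D, the largest D of each stress, the genes at the edge of the choice, the widest called differences between stresses, the largest called changes from 3 h to 72 h, the 3 widest mock ranges, the highest and lowest mock level, symbols, left-out identifiers and neighbours. Alternatives were DESeq2 1.42.0, a replicate block, RLE scaling, no filter, each replicate number left out, the adjusted p alone, and other pseudocounts and limits for the choice. Library totals and 2 sets of left-out libraries were chosen after seeing the data.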

Additional observations from a re-analysis of the deposited data

Results flagged for a closer look

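The effect of a stress against mock differed between 72 h and 3 h, by edgeR's quasi-likelihood test of the difference itself, in 85 members for heat, 79 for cold, 35 for mannitol and 52 for NaCl. In heat and NaCl most of these effects were smaller at 72 h, and in cold and mannitol most were larger. Shares called smaller over all 19588 genes tested were 12.2% (heat), 20.1% (cold), 1.87% (mannitol) and 3.73% (NaCl). Shares called larger were 10.2%, 18.2%, 2.64% and 2.99%, listed by stress as before. The 3 h and 72 h effects were used to choose the members, so the member counts are a description. Groups of 3 libraries are too small for a test of single outlying samples, and none was made.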

How the results depend on the processing

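For the named members, no called mean difference between stresses or change from 3 h to 72 h reversed its direction in an alternative fit. The summary values are counts, which carry no direction. Of these, 503 stayed within a set ratio of the reported ones and 17 did not. That ratio was wide, since 185 and 341 in place of 277 counted as close. They include counts of genes meeting the limits with each of the 78 libraries left out in turn. Of the values recomputed for named genes, 33 lost their call, 32 gained one and 2335 did neither. With D of at least 1 in place of 0.5, 50 genes met the limits, all of them members. With the adjusted p alone, calls lower against mock numbered 69, calls between mock time points 102 higher and 160 lower, and calls between stresses at single time points 1010 higher and 1298 lower. The members called in the mean difference then numbered 83 for heat and cold, 88 for heat and mannitol, 99 for heat and NaCl, 86 for cold and mannitol, 86 for cold and NaCl and 73 for mannitol and NaCl. Without the fold limit 34.7% of all genes were called for mannitol and NaCl. Shares for the other counts are not given here, so nothing particular to the members is read from them. For mannitol and NaCl the count of 0 became 1 with library totals, 5 without the libraries that stand apart, and 0 to 5 when 1 replicate number was left out. The cause was not tested. Replicate numbers did not pair the libraries: same-number correlations ran from -0.282 to 0.291. A replicate block gave 1542 calls higher against mock in place of 1540. The number of genes meeting the limits before the largest 120 were kept was 277, and it was 211 with TMM, 210 with RLE, 313 with a pseudocount of 0.25, 185 with a pseudocount of 4, and 238 to 341 when 1 replicate number was left out. Depth limits members under 10 CPM most, where a mock library can hold 1 or 2 counts. Whether replicates came from separate growth runs is not given in the sources used here, and p-values then measure the spread between these libraries.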
